A study of Mus musculus with 8 samples.

Results

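The genes of receptors for serotonin, noradrenaline and adrenaline, acetylcholine and histamine were examined in the hippocampus of wild-type and Mbd2-/- mice. They were chosen by gene symbol (Htr, Adra, Adrb, Chrm, Hrh and Chrn followed by a subtype), without the receptor kinases named Adrbk, and 44 such genes were found among the 19201 genes of the expression table. They comprise 14 serotonin, 9 adrenergic, 5 muscarinic, 3 histamine and 13 nicotinic genes, and 37 of them reached the mean normalized count of 10 that was required for testing. Chrna9, Chrnd, Chrng and Hrh4 are not analysed here. Mbd2 is a protein that binds methylated CpG sites in DNA, and the study asked what it contributes to gene expression in the hippocampus. The wild-type mice (called control in the labels) were C57BL/6 and the Mbd2-/- mice had a C57BL/6 background. Both were littermates of heterozygous parents, aged 10 to 12 weeks, and the Mbd2-/- allele, which is present in all cells, leaves exon 1 in place. Each of the 4 libraries of a genotype pooled both hippocampi of 2 mice, so that p-values measure the spread between pools and not between single animals.

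These transmitters reach the hippocampus mainly along axons of neurons whose cell bodies lie in the brainstem, the septum and the hypothalamus, and they mostly adjust excitability and plasticity rather than carry fast excitation. Most of the receptors couple to G proteins. Receptors coupled to Gi/o lower cyclic AMP and open potassium channels, those coupled to Gs raise cyclic AMP, and those coupled to Gq/11 activate phospholipase C-beta and release calcium. The nicotinic and 5-HT3 receptors are instead ion channels made of several subunits, in which the subunit mixture sets the sensitivity to agonist and the permeability to calcium.

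The values are normalized counts, the reads on a gene divided by a size factor for each library, and the libraries held 8439570 to 23790825 reads on genes in wild-type and 8087750 to 14020765 in Mbd2-/- mice. Reads of Mbd2 were present in the Mbd2-/- libraries, whose allele keeps exon 1, so that the gene checks the labels only in part. Its normalized counts were 295, 363, 371 and 354 in wild-type replicates 1 to 4 and 244, 239.6, 339 and 217 in Mbd2-/- replicates 1 to 4. The genotypes overlapped in Mbd2-/- replicate 3 (log2 fold change -0.43, adjusted p = 0.0174, limma, exact permutation p = 0.0571), and the call was lost without wild-type replicate 3 and without Mbd2-/- replicates 1 or 2 (adjusted p of 0.0542 to 0.0625, limma), and also in limma without trend and robust moderation (adjusted p = 0.0731).

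Receptor genes were lower in Mbd2-/- hippocampi where they passed the test. Of the 37 receptor genes tested, 11 had lower expression and 0 had higher expression at an adjusted p under 0.05 (limma with Benjamini-Hochberg adjustment over all 14504 genes tested), where 10.0% of all tested genes were called lower and 12.0% higher. At an unadjusted p under 0.05 there were 17 receptor genes, all lower, where 17.0% of all tested genes were lower and 18.5% higher. The tools edgeR, DESeq2 and limma-voom on the recovered reads also called 0 higher, beside 12.5%, 12.4% and 12.1% of all tested genes. The 11 genes were the nicotinic subunits Chrna3, Chrna4 and Chrnb2, the adrenergic receptors Adra1b, Adra2a and Adra2b, the muscarinic receptors Chrm2 and Chrm3, the serotonin receptors Htr1a and Htr7 and the histamine receptor Hrh3. In RNA from whole tissue, fewer cells of a type and less RNA per cell cannot be told apart. The log2 fold change of Mbd2-/- against wild-type, computed on log2(normalized count + 1), was below 0 in 30 of the 37 genes (50.0% of all tested genes). Its size depends on the fit in genes with low counts. Chrm2 had -0.71 here against -0.66 in edgeR, and Chrna3 had -1.01 against -1.08. The median over the 37 genes was -0.22, beside -9.1e-05 over all tested genes, and the values ran from -1.01 for Chrna3 to 0.25 for Htr3a. In 14 receptor genes every Mbd2-/- library lay below every wild-type library (11.5% of all tested genes), and in 0 genes above (12.1% of all tested genes). The 14 are the 11 called genes with Chrm1, Chrm4 and Htr4. For each of the 11 called genes an exact two-sided permutation test gave p = 0.0286, the smallest that 4 libraries against 4 can give. Any gene without overlap between the genotypes has this value, so the test adds nothing to the separation.

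**Figure D1:**
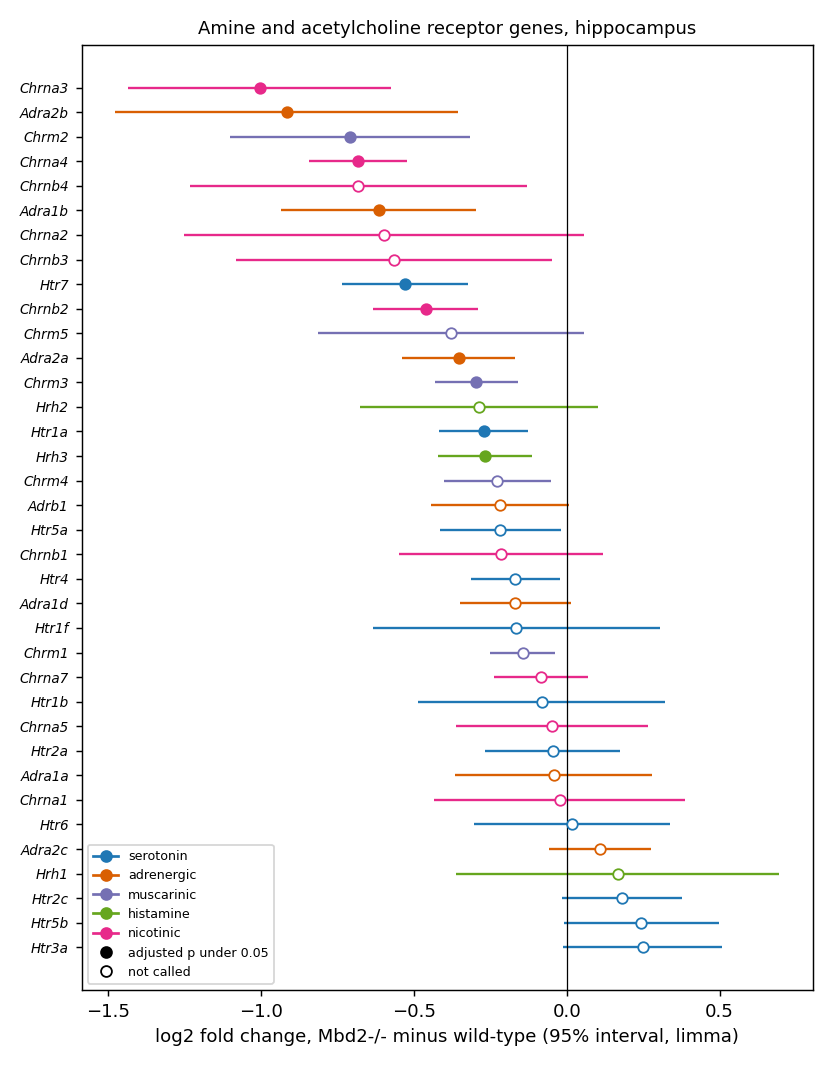
Log2 fold change of 36 tested receptor genes (Mbd2-/- minus wild-type, points) with its 95% confidence interval from limma (lines), colored by transmitter family and ordered by size. The 11 filled points are the genes called lower, between -1.01 and -0.27, and the 6 genes right of 0 are open.

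The receptors were also counted by coupling, beside the 10.0% of all tested genes called lower. Among the G protein-coupled receptors 5 of 11 Gi/o-coupled (45.5%), 2 of 9 Gq/11-coupled (22.2%) and 1 of 6 Gs-coupled genes (16.7%) were called lower, and among the channel subunits 3 of 11 (27.3%). The counts for Gq/11 and Gs rest on 2 genes and 1 gene, and among the 5-HT2, 5-HT3, beta adrenergic and muscle nicotinic genes 0 were called. These counts moved with single libraries left out, as did the share over all tested genes. Without wild-type replicate 1 Adra2b and Chrm2 (Gi/o) were lost, and without Mbd2-/- replicate 2 Adra2b and Hrh3 (Gi/o). Without Mbd2-/- replicate 3 Htr5a (Gi/o), Adra1d and Chrm5 (Gq/11), Adrb1 (Gs) and Chrnb4 (channel) were added. Without Mbd2-/- replicate 4 Chrm1 (Gq/11), Chrna2 and Chrnb3 (channels) were added. The 10 nicotinic genes all had log2 fold changes below 0, with a median of -0.51. The median was -0.30 over the 5 muscarinic, -0.27 over the 3 histamine, -0.19 over the 8 adrenergic and -0.083 over the 11 serotonin genes. The serotonin median is the value of Htr1b, which ran from -0.16 to -0.024 with single libraries left out. Differences between these medians were not tested.

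Since Mbd2 binds methylated CpG sites, the CpG content of the promoters is shown for the 4 called genes with the largest fold changes. Methylation and Mbd2 binding were not measured in these libraries. The study measured both in separate assays of the hippocampus, whose data were not used here. It reported binding of the protein at unmethylated CpG sites as well as methylated ones. Adrenergic receptor signaling was among its leading pathways for promoters with raised methylation in the knockout mice. The sequences are the 250 bases before the transcription start from RefSeq on GRCm38.p6, written in the direction of transcription, with each CpG in capitals. They lie at chr9:55026563-55026812 (minus strand) for Chrna3, chr2:181039178-181039427 (minus strand) for Chrna4, chr2:127362929-127363178 (plus strand) for Adra2b and chr6:36387834-36388083 (plus strand) for Chrm2.
Chrna3: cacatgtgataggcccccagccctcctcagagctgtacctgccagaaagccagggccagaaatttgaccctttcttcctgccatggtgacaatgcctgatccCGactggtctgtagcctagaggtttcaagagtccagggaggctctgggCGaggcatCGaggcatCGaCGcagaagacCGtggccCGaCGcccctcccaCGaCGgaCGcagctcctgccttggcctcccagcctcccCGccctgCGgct
Chrna4: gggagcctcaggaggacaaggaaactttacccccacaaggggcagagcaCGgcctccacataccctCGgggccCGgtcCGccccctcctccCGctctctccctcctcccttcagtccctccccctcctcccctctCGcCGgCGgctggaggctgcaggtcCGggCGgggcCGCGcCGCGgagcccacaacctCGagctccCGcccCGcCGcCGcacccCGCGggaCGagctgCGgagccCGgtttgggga
Adra2b: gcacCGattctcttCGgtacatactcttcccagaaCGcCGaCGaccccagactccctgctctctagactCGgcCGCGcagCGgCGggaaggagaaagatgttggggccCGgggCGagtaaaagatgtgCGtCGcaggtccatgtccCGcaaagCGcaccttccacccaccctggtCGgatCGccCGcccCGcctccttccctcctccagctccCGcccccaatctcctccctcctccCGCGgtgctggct
Chrm2: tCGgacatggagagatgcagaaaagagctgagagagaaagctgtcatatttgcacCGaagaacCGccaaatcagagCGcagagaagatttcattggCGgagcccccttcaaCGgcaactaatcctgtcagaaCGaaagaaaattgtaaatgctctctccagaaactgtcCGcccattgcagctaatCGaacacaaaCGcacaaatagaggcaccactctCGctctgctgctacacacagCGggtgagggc
They hold 13 CpG sites in Chrna3, 24 in Chrna4, 23 in Adra2b and 12 in Chrm2. For genes with several starts the one with most CpG sites was counted, and counted in this way the median was 17 over the 11014 tested genes that have an entry and 6 over all 27025 genes of the table, tested or not. An entry was found for 28 of the 37 tested receptor genes, and the 9 without one were all among the genes not called. The number of CpG sites ran from 6 to 42 with a median of 22 in the 11 called genes, and from 2 to 32 with a median of 10 in 17 of the 26 genes that were not called. The difference was not tested. Hrh3 with 42 and Htr7 with 41 sites had the most, and Htr1a with 6 had the fewest among the called genes. The GC box GGGCGG, read on both strands, was found in 8 of the 11 and 9 of the 17 genes, beside 61.2% of the tested genes with an entry (32.7% of all 32851 promoters of the table). The cyclic AMP response element TGACGTCA was found in 0 of the 28, beside 2.80% of the tested genes with an entry (1.55% of all promoters). Both motifs contain a CpG.

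Among the nicotinic subunits, the alpha4 and beta2 subunits, which together form the most common nicotinic receptor of the brain with high affinity for nicotine, were both lower. Chrna4 (chromosome 2 of mm9, from 180753085 to 180778251) had 459, 458, 465 and 449 normalized counts in wild-type replicates 1 to 4 and 275, 316, 299.7 and 253 in Mbd2-/- replicates 1 to 4. The wild-type libraries lay close together, with an SD of 6.64 on a mean of 458, and the highest Mbd2-/- library was far below the lowest of them. The log2 fold change was -0.68 ± 0.08 SE (adjusted p = 3.33e-05, limma), the smallest adjusted p of the 37 genes. Chrnb2 (chromosome 3, from 89557370 to 89568554) had 868, 818, 832 and 790.3 normalized counts in wild-type and 502, 651, 679 and 583 in Mbd2-/- replicates, again without overlap. Its log2 fold change was -0.46 ± 0.08 SE (adjusted p = 0.00108, limma).

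The alpha3 subunit is used with beta4 in the autonomic ganglia and in the medial habenula, and its gene had the lowest log2 fold change of the tested receptor genes with all libraries in the fit, while Adra2b had a lower one without wild-type replicate 4 and without Mbd2-/- replicates 1 or 4. Chrna3 had 42.0, 40.6, 28.3 and 48.9 normalized counts in wild-type and 21.7, 21.0, 17.5 and 16.3 in Mbd2-/- replicates. All 4 Mbd2-/- libraries lay below the lowest wild-type library, replicate 3 (log2 fold change -1.01 ± 0.20 SE, adjusted p = 0.00283, limma). Chrna3 lies on chromosome 9 of mm9 from 54859150 to 54874366, between Chrna5 (54828687 to 54855586, opposite strand) and Chrnb4 (54875963 to 54896351, same strand), genes whose products assemble with alpha3. The neighbours had different values. Chrnb4 had 22.2 ± 2.22 normalized counts in wild-type against 14.1 ± 5.24 in Mbd2-/- libraries (SD, n = 4 libraries each), with a log2 fold change of -0.68 (adjusted p = 0.0710, limma), and it was called lower in limma-voom (-0.75, adjusted p = 0.0408) and without Mbd2-/- replicate 3 (-0.88, adjusted p = 0.0222, limma). Chrna5, an accessory subunit, had 73.2 ± 9.79 and 71.2 ± 12.8 (SD, n = 4), with -0.05 (95% interval -0.36 to 0.27, adjusted p = 0.850, limma). The difference between these 3 genes in their fold changes was not tested.

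Other nicotinic subunits did not pass the test. Chrna7, whose product forms a channel on its own with high calcium permeability and whose level per transcript length was the highest of the alpha subunits, had 351, 327, 375 and 315 normalized counts in wild-type and 321, 314, 322 and 331 in Mbd2-/- replicates. The genotypes overlapped widely, and the log2 fold change was -0.08 with a 95% interval of -0.24 to 0.07 (adjusted p = 0.435, limma). Chrnb3 and Chrna2, subunits with expression in restricted groups of neurons, had low counts of 18.5 ± 2.60 and 17.6 ± 4.10 in wild-type against 12.3 ± 2.78 and 11.9 ± 5.83 in Mbd2-/- libraries (SD, n = 4). Their log2 fold changes were -0.57 and -0.60 (adjusted p of 0.107 and 0.178, limma), and in both genes Mbd2-/- replicate 4 was the highest of its group. Without that library both were called lower (adjusted p of 0.0459 for Chrnb3 and 0.0267 for Chrna2, limma), and Chrnb3 also in limma without trend and robust moderation (adjusted p = 0.0398). Of the subunits of the muscle receptor, Chrnb1 had 52.5, 44.4, 44.7 and 42.0 normalized counts in wild-type and 31.9, 41.2, 39.8 and 45.2 in Mbd2-/- replicates, with overlap (log2 fold change -0.22, adjusted p = 0.345, limma, and -0.12 without Mbd2-/- replicate 1). Chrna1 had 23.2 ± 2.50 and 22.9 ± 2.74 (SD, n = 4), and its log2 fold change of -0.02 changed sign with the processing. The channel subunit of serotonin receptors, Htr3a, which marks a class of interneurons, had 92.9, 80.5, 93.9 and 99.3 normalized counts in wild-type and 115, 108, 128 and 88.4 in Mbd2-/- replicates. Its 3 higher Mbd2-/- libraries lay above every wild-type library and replicate 4 did not (log2 fold change 0.25, adjusted p = 0.159, limma). Without replicate 4 it was called higher, with 0.35 (adjusted p = 0.0248, limma), in a fit that called 17.9% of all tested genes higher, and with the trend of the counts on transcript length removed from each library it had 0.16 (adjusted p = 0.383, limma).

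**Figure D2:**
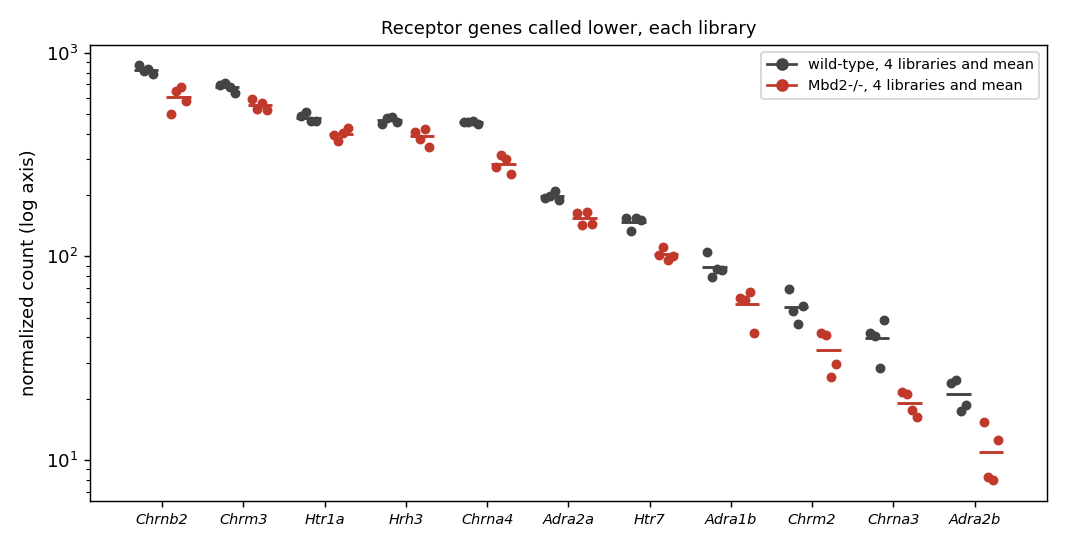
Normalized count (log axis) in each of the 8 libraries for the 11 receptor genes called lower, with wild-type libraries in gray, Mbd2-/- libraries in red and horizontal lines at the means of 4 libraries. In every gene all 4 red points lie below all 4 gray points, as in Chrna4 with 449 to 465 against 253 to 316.

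Receptors coupled to Gi/o include autoreceptors and heteroreceptors that restrain transmitter release, and 5 of the 11 tested were lower with all libraries in the fit. Counts of RNA from the hippocampus do not measure receptors on axons whose cell bodies lie in other regions. Htr1a, the main inhibitory serotonin receptor of hippocampal pyramidal and granule cells, had 489, 511, 462 and 463 normalized counts in wild-type and 396, 368, 402 and 429.6 in Mbd2-/- replicates. The genotypes did not overlap, and the log2 fold change was -0.27 ± 0.07 SE (adjusted p = 0.0107, limma). Hrh3, a histamine receptor on nerve terminals, had 447, 477, 486 and 457 normalized counts in wild-type and 409.9, 379, 421 and 345 in Mbd2-/- replicates (log2 fold change -0.27 ± 0.07 SE, adjusted p = 0.0162, limma). No library of one genotype reached the other, and the call was lost without wild-type replicate 3 (adjusted p = 0.0588, limma) or Mbd2-/- replicate 2 (adjusted p = 0.0522, limma).

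The 3 alpha-2 adrenergic receptors, which mediate inhibition by noradrenaline, had different outcomes. Adra2a, the main autoreceptor of noradrenergic neurons, had 193, 197, 209 and 189 normalized counts in wild-type and 163, 143, 166 and 145 in Mbd2-/- replicates (log2 fold change -0.35 ± 0.09 SE, adjusted p = 0.00902, limma). Adra2b, which is prominent in the thalamus, had 24.0, 24.8, 17.3 and 18.6 in wild-type and 15.3, 8.23, 7.97 and 12.5 in Mbd2-/- replicates (log2 fold change -0.92 ± 0.27 SE, adjusted p = 0.0216, limma). Both were separated between genotypes, but the call of Adra2b rested on few counts and was lost without wild-type replicate 1, wild-type replicate 2 or Mbd2-/- replicate 2 (adjusted p of 0.0664, 0.0701 and 0.0668, limma). Adra2c, the most expressed of the 3, had 449.6, 439, 502 and 495 normalized counts in wild-type and 508, 503, 579 and 449.7 in Mbd2-/- replicates. These overlapped, and the log2 fold change was 0.11 with a 95% interval of -0.06 to 0.28 (adjusted p = 0.337, limma). It was 0.047 without Mbd2-/- replicate 3 and 0.17 without Mbd2-/- replicate 4 (adjusted p of 0.693 and 0.0609, limma). The differences between the alpha-2 genes were not tested.

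The muscarinic receptors M2 and M4 also couple to Gi/o. Chrm2, the presynaptic receptor of cholinergic terminals and of some interneurons, had 68.9, 54.2, 46.5 and 56.8 normalized counts in wild-type and 42.1, 41.2, 25.5 and 29.8 in Mbd2-/- replicates (log2 fold change -0.71 ± 0.19 SE, adjusted p = 0.0128, limma). The genotypes did not overlap, and the call was lost without wild-type replicate 1, the highest library (adjusted p = 0.0531, limma). Chrm4 had 216, 209.9, 208 and 202 in wild-type and 183, 195, 175 and 162 in Mbd2-/- replicates. These did not overlap either, but the gene did not pass the test (log2 fold change -0.23, adjusted p = 0.0598, limma). Exons of Chrm4 share 25 bases, of a transcript of 2768, with Mdk on the opposite strand, and Mdk, the growth factor midkine, was itself higher in every Mbd2-/- library (105 ± 6.65 and 171 ± 19.9 normalized counts, SD, n = 4). Whether the counting used strand is not given in the sources used here, and without strand reads from shared bases cannot be told apart. Chrm2 shares 142 bases with 9330158H04Rik, which had 0.912 to 5.27 normalized counts, and Htr1b shares 852 of 1273 with D430036J16Rik, which had 3.00 to 14.3. Chrm1, Hrh3 and Adra1d share 329, 349 and 147 bases with genes on the opposite strand that were not analysed here.

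Of the remaining Gi/o-coupled serotonin receptors, Htr5a had 169 ± 3.75 normalized counts in wild-type against 146 ± 16.1 in Mbd2-/- libraries (SD, n = 4), with Mbd2-/- replicate 3 among the wild-type values (log2 fold change -0.22, adjusted p = 0.106, limma, and 0.0322 without that library). With the length trend removed it had -0.13 (adjusted p = 0.426, limma). Its relative Htr5b had 75.4 ± 7.58 and 89.4 ± 8.51 (SD, n = 4), with a log2 fold change of 0.24 (adjusted p = 0.156, limma), so that the 5-HT5 genes had opposite signs without a call in either. Htr1b, the terminal autoreceptor, had 24.9 ± 2.84 and 23.5 ± 2.75, and Htr1f had 29.4 ± 4.62 and 26.9 ± 8.92 (SD, n = 4). Their genotypes overlapped (adjusted p of 0.792 and 0.632, limma), and the 95% intervals of -0.49 to 0.32 and -0.63 to 0.30 leave changes of either sign possible at this depth. With single libraries left out, the value of Htr1f ran from -0.36 to -0.025.

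Receptors coupled to Gq/11 excite their cells, and 2 of the 9 tested were lower with all libraries in the fit. Chrm3 had 697, 710.2, 679 and 635 normalized counts in wild-type and 592, 530.4, 569 and 525 in Mbd2-/- replicates, without overlap (log2 fold change -0.30 ± 0.06 SE, adjusted p = 0.00421, limma). Chrm1, the principal muscarinic receptor of pyramidal cells, had 3289.9, 3501, 3405 and 3396 in wild-type and 3072, 3259, 3114 and 2870.4 in Mbd2-/- replicates. The groups were separated by a narrow gap, and the decrease of -0.14 on the log2 scale missed the threshold (adjusted p = 0.0511, limma). It passed in DESeq2 (adjusted p = 0.0355), with a minimum count of 50 (0.0454, limma) and without Mbd2-/- replicate 4 (0.0428, limma). With the length trend removed, the value of Chrm1, which has the longest transcript of the tested receptor genes, was -0.039 (adjusted p = 0.690, limma). Chrm5 had 32.5 ± 2.06 and 25.4 ± 7.74 (SD, n = 4), with Mbd2-/- replicate 3 above all wild-type libraries (log2 fold change -0.38, adjusted p = 0.198, limma, and 0.0470 without that library).

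Of the alpha-1 adrenergic receptors, Adra1b had 105, 79.0, 86.6 and 85.5 normalized counts in wild-type and 62.6, 61.3, 66.9 and 42.3 in Mbd2-/- replicates (log2 fold change -0.62 ± 0.15 SE, adjusted p = 0.00886, limma). It is another receptor gene with strong expression in the thalamus, and no library of one genotype reached the other. Adra1d, the alpha-1 receptor typical of the hippocampus, had the highest mean per transcript length, on a short annotated transcript and with libraries that overlapped those of Chrm1. It had 1139, 976, 1096 and 1108 normalized counts in wild-type and 914, 1029, 1119 and 805 in Mbd2-/- replicates. The genotypes overlapped (log2 fold change -0.17, 95% interval -0.35 to 0.01, adjusted p = 0.172, limma), and without Mbd2-/- replicate 3 the gene was called lower (-0.24, adjusted p = 0.0327, limma), while without Mbd2-/- replicate 4 it had -0.084 (adjusted p = 0.332, limma). Adra1a had 107 ± 10.6 and 106 ± 27.4 normalized counts (SD, n = 4), with a log2 fold change of -0.04 whose sign changed with the processing.

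Among the 5-HT2 receptors, Htr2c, which is abundant in the choroid plexus, had 505, 554, 438 and 555 normalized counts in wild-type and 663, 569.7, 489 and 606 in Mbd2-/- replicates. The 3 higher Mbd2-/- libraries exceeded every wild-type library and replicate 3 did not, so that the groups overlapped (log2 fold change 0.18, 95% interval -0.02 to 0.38, adjusted p = 0.177, limma). Without replicate 3 the gene was called higher, with 0.26 (adjusted p = 0.0341, limma), in a fit that called 10.7% of all tested genes higher, while without wild-type replicate 3 it had 0.11 (adjusted p = 0.473, limma) and without Mbd2-/- replicate 1 also 0.11 (adjusted p = 0.450, limma). Htr2a, a receptor of pyramidal cells and interneurons, had 119 ± 13.9 and 115 ± 2.73 (SD, n = 4) with a log2 fold change of -0.05 (adjusted p = 0.789, limma). The histamine receptor Hrh1 had 14.6 ± 2.20 and 16.7 ± 3.81 normalized counts (SD, n = 4) with a log2 fold change of 0.17 (adjusted p = 0.675, limma), which ran from 0.083 to 0.34 with single libraries left out.

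Receptors coupled to Gs raise cyclic AMP, and 1 of the 6 tested was lower with all libraries in the fit. Htr7, a receptor of the thalamus and of CA3 pyramidal cells, had 154, 134, 154 and 151 normalized counts in wild-type and 102, 112, 95.6 and 101 in Mbd2-/- replicates. The lowest wild-type library, replicate 2, still exceeded the highest Mbd2-/- library (log2 fold change -0.53 ± 0.10 SE, adjusted p = 0.00148, limma). Htr4, a receptor of pyramidal and granule cells, had 304, 317, 323 and 306 in wild-type and 286, 277, 265 and 284 in Mbd2-/- replicates, also without overlap. Its decrease of -0.17 on the log2 scale did not pass the test (adjusted p = 0.0897, limma). Htr6 had 46.0 ± 5.97 and 46.4 ± 4.59 normalized counts (SD, n = 4), a log2 fold change of 0.02 with a 95% interval of -0.30 to 0.34.

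The beta adrenergic receptor Adrb1, the main beta receptor of neurons, had 213, 217, 221 and 231 normalized counts in wild-type and 206, 165, 233 and 162 in Mbd2-/- replicates. Mbd2-/- replicates 1, 2 and 4 lay below the wild-type range and replicate 3 above it (log2 fold change -0.22, adjusted p = 0.155, limma, and 0.0261 without replicate 3). Without Mbd2-/- replicate 4 it had -0.14 (adjusted p = 0.267, limma). The histamine receptor Hrh2 had 37.2 ± 3.47 and 30.8 ± 7.27 (SD, n = 4), with Mbd2-/- replicate 3 above the wild-type libraries (log2 fold change -0.29, adjusted p = 0.284, limma, and -0.43 without that library). The 7 receptor genes under the minimum count were Htr1d, Htr2b, Htr3b, Adrb3, Chrna6, Chrna10 and Chrne. Their counts ran from 0 to 18.3 in single libraries, with means of at most 9.86 in either genotype, and they were not tested.

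Levels of different genes can be compared only per transcript length. Per kb of the longest annotated transcript, wild-type libraries had 569 ± 37.7 normalized counts for Adra1d and 542 ± 13.7 for Chrm1 (SD, n = 4 libraries), whose libraries overlapped, followed by Chrm3 with 349 ± 16.8 and Hrh3 with 172 ± 6.63. Chrnb2 (154 ± 5.99), Adra2c (147 ± 9.99) and Chrna7 (121 ± 9.43) came next, and Chrnb2 and Adra2c overlapped. Next in the order of means were Htr1a (108 ± 5.27), Htr2c (105 ± 11.2) and Chrna4 (100.2 ± 1.45). The libraries of Htr1a and Htr2c overlapped those of Chrna7. Those of Htr2c also overlapped those of Htr1a and Chrna4, while every Htr1a library lay above every Chrna4 library. The annotated Chrm3 and Adra1d transcripts are short, 1949 and 1899 bases, and a level per kb depends on that annotation. At the other end were Chrna2 (5.00 ± 1.16), Chrnb3 (4.03 ± 0.567) and Hrh1 (3.86 ± 0.582), so that the tested receptor genes covered a wide range of levels. The called genes were spread over this order, from Chrm3 to Adra2b (5.28 ± 0.941). Chrna4, which was close to Htr2c in wild-type, had 62.6 ± 6.06 per kb in Mbd2-/- libraries against 119 ± 14.9 for Htr2c (SD, n = 4).

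**Figure D3:**
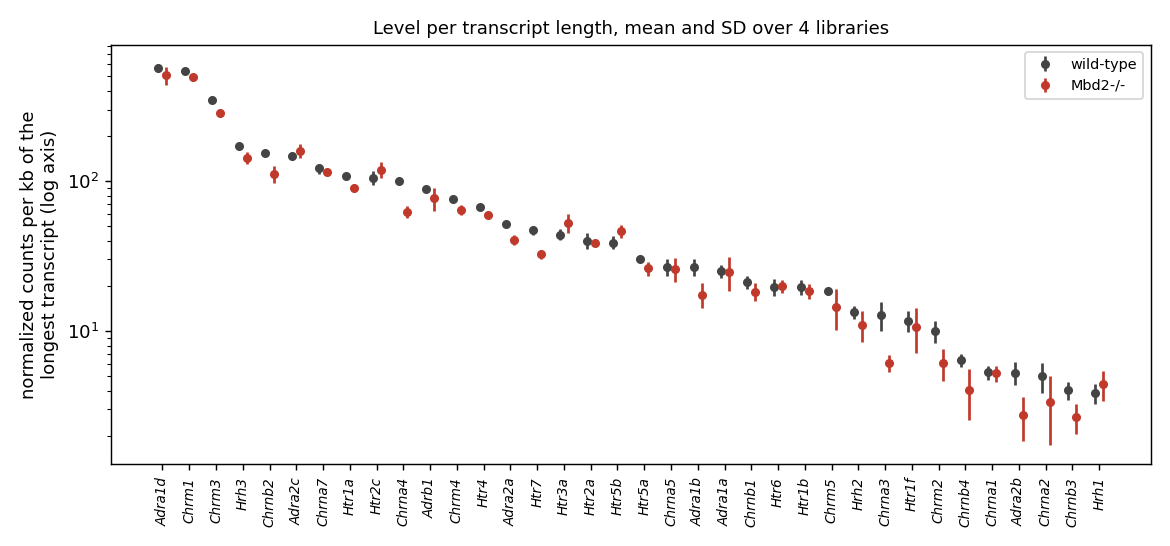
Normalized counts per kb of the longest annotated transcript (log axis; points are means and bars SDs over 4 libraries) of 36 tested receptor genes in wild-type (gray) and Mbd2-/- (red) hippocampi, ordered by the wild-type level. Wild-type levels run from 569 for Adra1d to 3.86 for Hrh1, and most Mbd2-/- points lie below the wild-type points along the whole order, but not those of Adra2c, Htr2c, Htr3a, Htr5b, Htr6 and Hrh1.

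Genes that act with the receptors were counted from lists of transmitter metabolism, G proteins, effectors and regulators. Of the 68 tested, 9 were called higher (13.2%, close to the 12.0% of all tested genes) and 14 lower (20.6%, beside 10.0%), with a median log2 fold change of -0.0069. These counts moved with the fit, and so did the shares over all tested genes. With the length trend removed 8 were lower, beside 6.80% of all genes. Without wild-type replicates 1 or 3 or Mbd2-/- replicates 1 or 2 there were 5 higher, beside 8.07% to 8.48%, and without wild-type replicates 1 or 4 or Mbd2-/- replicate 1 there were 9 lower, beside 5.98% to 6.33%. Without Mbd2-/- replicate 4 there were 14 higher and 19 lower, beside 17.9% and 17.6%. The shares of the smaller lists that follow rest on few genes, and none was tested against all genes. The enzymes and transporters that make, move and break down the transmitters had 4 higher (23.5%) and 1 lower (5.88%) of 17 tested. The lower gene was Slc5a7, the choline transporter of cholinergic terminals, with 28.7 ± 9.28 normalized counts in wild-type against 11.1 ± 4.57 in Mbd2-/- libraries (SD, n = 4; log2 fold change -1.33, adjusted p = 0.00618, limma). The 10 other genes of the list were under the minimum count and were not tested, and those among them whose genotypes did not overlap are named after their values were seen. Chat, which makes acetylcholine, and Slc18a3, which loads it into vesicles, had 10.1 ± 2.63 and 9.91 ± 0.652 in wild-type against 3.62 ± 2.28 and 3.55 ± 1.19 in Mbd2-/- libraries (SD, n = 4). Tph1 and Th, which start the synthesis of serotonin and of the catecholamines, lay the other way, with 5.44 ± 1.72 and 6.19 ± 0.214 in wild-type against 9.94 ± 1.47 and 10.1 ± 2.63 in Mbd2-/- libraries (SD, n = 4). In Dbh, Pnmt, Slc6a4, Slc6a2, Slc18a1 and Slc22a3 the genotypes overlapped. The higher genes were Qdpr (0.36, adjusted p = 2.98e-04, limma) and Pts (0.24, 0.0411), which supply the cofactor of monoamine synthesis, Aldh2 (0.31, 0.00455), which oxidizes aldehydes left by monoamine oxidase, and the monoamine transporter Slc29a4 (0.27, 0.0110). The call of Pts was lost with the length trend removed (-0.0088, adjusted p = 0.958, limma) and in 6 of the 8 fits without 1 library.

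Downstream of the receptors, 5 of the 12 genes of phospholipase C-beta and adenylyl cyclase were called lower (41.7%) and 0 higher, beside 10.0% and 12.0% of all tested genes. They were Plcb4 (log2 fold change -0.45, adjusted p = 9.81e-04, limma), which takes signals from Gq/11 and is prominent in the thalamus, and the cyclases Adcy7 (-0.44, 0.0425), Adcy9 (-0.35, 1.58e-04), Adcy3 (-0.26, 0.00799) and Adcy6 (-0.26, 0.0129). With the length trend removed Adcy3, Adcy6 and Adcy7 were no longer called (adjusted p of 0.0754, 0.129 and 0.125, limma), and Adcy7 was not called in edgeR, DESeq2 or limma-voom either. Without wild-type replicate 1 and without Mbd2-/- replicate 1 the calls of Adcy6 and Adcy7 were lost. That of Adcy7 was also lost without wild-type replicates 2, 3 or 4 or Mbd2-/- replicate 2. The G protein alpha subunits moved in both directions, with 3 of 10 higher and 2 lower. Gnal (-0.29, adjusted p = 0.00107, limma) and Gnaq (-0.19, 0.0259) were lower, and Gnai2 (0.30, 0.0123), Gna11 (0.20, 0.0301) and Gnas (0.17, 0.0231) were higher. The calls of Gnaq, Gna11 and Gnas were each lost in 7 of the 8 fits without 1 library, and that of Gnaq also with the length trend removed (adjusted p = 0.167, limma).

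Of the 18 receptor kinases, arrestins and RGS proteins, which end receptor signals, 4 were called lower (22.2%, beside 10.0% of all tested genes) and 2 higher (11.1%, beside 12.0%). Rgs16 fell from 187 ± 18.1 to 107 ± 17.1 normalized counts (SD, n = 4; log2 fold change -0.81, adjusted p = 2.94e-04, limma), and it is also in the list of thalamus markers. Rgs10 (0.40, adjusted p = 0.00286, limma) and Rgs20 (0.27, 0.0236) were higher, and the receptor kinases Grk5 (-0.30, 0.0178) and Adrbk2 (-0.20, 0.0259) were among the lower ones. With the length trend removed Rgs10, Rgs20 and Adrbk2 were no longer called (adjusted p of 0.349, 0.110 and 0.224, limma), nor was Rgs8, the remaining lower gene (adjusted p = 0.467). The calls of Adrbk2, Rgs8 and Rgs20 were also lost in most fits without 1 library, and that of Grk5 without wild-type replicate 4. Of the 11 genes for nicotinic receptor assembly and for Ly6 proteins that bind nicotinic receptors, 2 were called lower (18.2%, beside 10.0%) and 0 higher. They were Lynx1 (-0.35, adjusted p = 1.98e-04, limma), whose product restrains nicotinic receptors, and Agrn (-0.28, 0.00279), which organizes the receptor at the nerve-muscle synapse. Agrn was no longer called with the length trend removed (adjusted p = 0.0633, limma).

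Markers of other regions moved with the genotype, and their part in the receptor values was not tested. The counts of called markers stand beside 10.0% lower and 12.0% higher over all tested genes. Of 14 tested thalamus markers, 11 were called lower and 0 higher, and their summed normalized counts were 5351 to 5483 in wild-type and 3615 to 3872 in Mbd2-/- libraries. The most abundant per transcript length in wild-type was Prkcd, with 794 ± 40.5 and 519 ± 26.6 normalized counts (SD, n = 4). Of 7 tested medial habenula markers, 4 were lower and 1 higher, and the sum over all 8 listed, of which Wif1 was under the minimum count, was 1155 to 1265 and 889 to 919. All 15 choroid plexus markers were higher, and their sum rose from 24300 to 26021 in wild-type to 46940 to 53448 in Mbd2-/- libraries. Beside these sums, set at 100% in the wild-type mean, the Mbd2-/- libraries held 69.8% ± 2.1 of the thalamus markers, 75.6% ± 1.0 of the medial habenula markers and 204% ± 11.9 of the choroid plexus markers (SD, n = 4). On the same scale Chrna4 stood at 62.4% ± 6.0, Chrnb2 at 73.0% ± 9.5, Chrna3 at 48.0% ± 6.6, Htr7 at 69.1% ± 4.5 and Htr2c at 113% ± 14.2. Of the other called genes, Adra2b (52.0%), Chrm2 (61.2%) and Adra1b (65.5%) stood below both the thalamus and the habenula sum, and Adra2a (78.3%), Chrm3 (81.4%), Htr1a (82.9%) and Hrh3 (83.3%) above both.

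The defining markers of hippocampal pyramidal and granule cells were present in every library, with a sum of 23960 to 24455 in wild-type and 22191 to 23939 in Mbd2-/- libraries, and 3 of the 13 were called lower and 1 higher. Every Mbd2-/- sum lay below every wild-type sum, by a narrow gap. Markers of astrocytes (6 of 8 higher), microglia (7 of 9 higher) and oligodendrocytes (7 of 9 higher) had 0 called lower. Endothelial cells, pericytes and smooth muscle had 3 of 12 higher and 0 lower. Interneuron markers were mixed, with 5 of 13 higher and 4 lower, as were those of the leptomeninges, with 3 of 9 higher and 2 lower, and of the striatum, with 1 of 8 higher and 2 lower. Summed over all listed genes of a kind, the leptomeninges markers had 1398 to 1493 normalized counts in wild-type and 1815 to 2313 in Mbd2-/- libraries. The sums were 116143 to 118739 and 128599 to 151201 for astrocytes, 5441 to 5689 and 6174 to 7060 for microglia, 80711 to 82049 and 95042 to 101586 for oligodendrocytes, and 3430 to 3561 and 3793 to 4187 for endothelial cells, pericytes and smooth muscle. In these 5 kinds every Mbd2-/- library lay above every wild-type library. The sums overlapped for interneurons (14165 to 14848 and 13059 to 15336) and the striatum (1407 to 1485 and 1346 to 1648). No marker gene stood at 0 in any library.

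**Figure D4:**
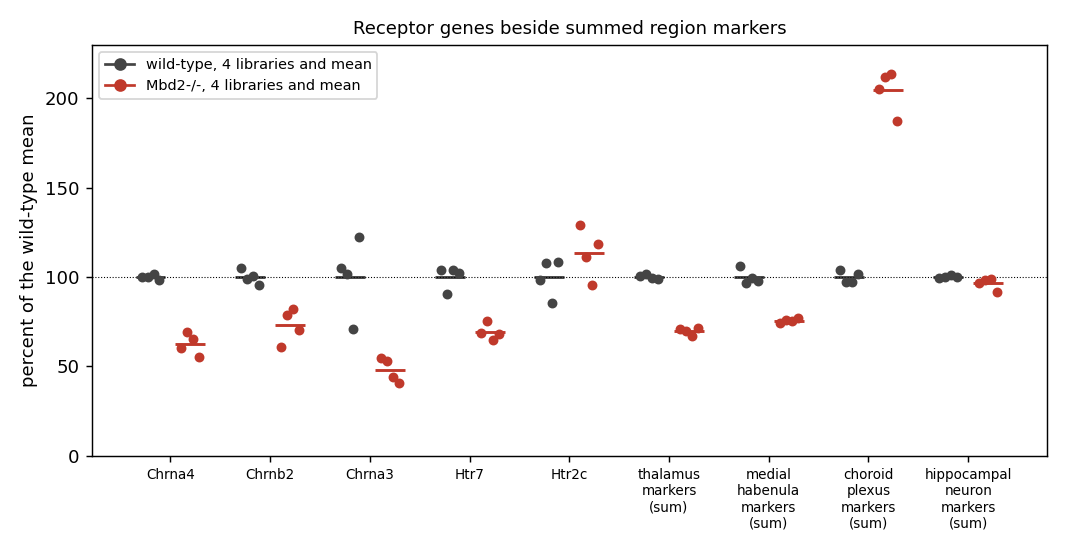
Normalized counts of 5 receptor genes and of the summed markers of 4 regions or cell types in each library, as percent of the wild-type mean, with wild-type libraries in gray, Mbd2-/- libraries in red and lines at the means of 4 libraries. In Mbd2-/- libraries the thalamus and medial habenula sums lie near 69.8% and 75.6%, beside 62.4% to 73.0% for the means of Chrna4, Chrnb2 and Htr7. Chrna3 lies below both at 48.0% and Htr2c above at 113%, and the choroid plexus sum lies near 204% and the hippocampal neuron sum near 96.3%.

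Transcript length also moved with the fold changes. Over 14154 genes with a length, the log2 fold change and the longest transcript were correlated with a Spearman's rho of -0.46, a value across genes, which are no independent samples. The median length was 3155 bases in the tested receptor genes and 3191 in all tested genes, and it was 3801 in the 11 called and 2801.5 in the 26 other receptor genes. When the trend on length was removed from each library, 13 receptor genes were called lower, where 6.80% of the genes tested were. They comprised the same 11 genes with Adra1d and Chrm4. Among genes without a call before or after, the log2 fold change came nearer to 0 in Chrm1, Htr3a, Htr5a, Htr4 (-0.11) and Htr5b (0.14). It moved away from 0 in Htr1b (-0.083 to -0.29), Chrm5 (-0.38 to -0.51), Chrnb1 (-0.22 to -0.30), Adrb1 (-0.22 to -0.27) and Htr2c (0.18 to 0.25), among others.

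Each Mbd2-/- library held many receptor genes below the wild-type range. Of the 37 receptor genes, 23, 24, 24 and 21 lay below every wild-type library in Mbd2-/- replicates 1 to 4, where 33.9%, 31.8%, 35.7% and 30.9% of all tested genes did. Above every wild-type library lay 6, 5, 6 and 3 receptor genes, where 32.2% to 35.2% of all tested genes did. The median difference of the 37 genes from the wild-type mean was -0.19, -0.30, -0.24 and -0.22 on the log2 scale in these 4 libraries and from -0.02 to 0.02 in those of wild-type mice. When each library was left out in turn, 9 to 16 receptor genes were called lower. There were 9 without wild-type replicate 1 and without Mbd2-/- replicate 2, where 5.98% and 6.47% of all tested genes were called lower. Without Mbd2-/- replicate 3 there were 16, with Adra1d, Adrb1, Chrm5, Chrnb4 and Htr5a added, beside 9.51% of all tested genes, and without Mbd2-/- replicate 4 there were 14, with Chrm1, Chrna2 and Chrnb3 added, beside 17.6%. Chrna3, Chrna4, Chrnb2, Adra1b, Adra2a, Chrm3, Htr1a and Htr7 were called lower in each of these 8 fits.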

How the data were processed

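Hippocampal total RNA, depleted of ribosomal RNA, was sequenced in 8 libraries as paired ends of 100 bases. The authors removed duplicate reads and mapped what remained to mm9 (STAR). Tool versions, the counting tool and its use of strand are not given in the sources used here. The deposited signal values are normalized counts, for which the authors divided the reads by DESeq2 size factors. Their columns are headed C and K with a replicate number. C was matched to the libraries titled Control, and K to those titled Mbd2-/-, the only other group. The deposited results of the authors' own DESeq2 comparison (mean, log2 fold change and its error, statistic, p-values) were not used.

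Reads per gene were recovered from the steps of the values, and 100% of the values came out as whole reads with a tolerance of 0.01. The genotypes were compared by limma (trend, robust; version 3.58.1, R 4.3.3) on log2(normalized count + 1), in genes whose mean normalized count was 10 or more, without pairing, with Benjamini-Hochberg adjustment over all genes tested, and called at 0.05. The test was also run on simulated counts, which held few changed genes and no length trend, so that run does not vouch for the calls here. Values given as ± are SDs over libraries unless marked as SE, the standard error from limma. Exact permutation tests covered the 70 splits of 4 and 4 libraries. Gene models were GENCODE vM1 on mm9, matched by symbol for 94.1% of the genes. Alternatives included edgeR 4.0.16, DESeq2 1.42.0 and limma-voom on the recovered reads. The receptor genes and all lists were chosen with earlier results of these data known. The values of 1 receptor gene, which stays in the counts and medians, are not reported here. The others are named, with values per library for the called ones and for the most abundant of each class, and of the other lists at most 5 called genes with the largest fold changes.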

Additional observations from a re-analysis of the deposited data

Results flagged for a closer look

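Among 74 groups of 4 libraries (37 receptor genes in 2 genotypes), 2 held a library far from the other 3 of its genotype, where chance gives such a gap in about 1 group of 20. For Chrna1, wild-type replicate 1 had 27.0 normalized counts and the other wild-type libraries 21.8 to 22.3. For Htr7, wild-type replicate 2 had 134 normalized counts and the other wild-type libraries 151 to 154.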

How the results depend on the processing

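With all libraries kept, 9 to 13 receptor genes were called lower and 0 higher under 11 alternatives, among them other pseudocounts, count minimums and scalings, edgeR, DESeq2 and limma-voom. Over all tested genes these alternatives called 6.45% to 11.9% lower and 8.11% to 14.2% higher. The 9 came from a minimum count of 50, which left Adra2b, Chrm2 and Chrna3 untested and added Chrm1. DESeq2 called 11, with Chrm1 added and no adjusted p for Adra2b. Same-numbered libraries correlated in their deviations by -0.10, -0.06, 0.07 and 0.04. These values show no pairing by the replicate numbers of the labels but cannot exclude it. With the number as a replicate block the same 11 genes were called lower. With each library left out in turn, receptor genes called lower ran from 9 to 16 and called higher from 0 to 1. Over all tested genes these fits called 5.98% to 17.6% lower and 8.07% to 17.9% higher.

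Counts over all genes moved further, and the cause was not tested. Without trend and robust moderation 936 genes were called lower, and with the length trend removed 1148 higher, 963 lower and 8 lower pathway genes. With single libraries left out, 1170 to 2596 genes were called higher and 868 to 2559 lower, with the highest counts without Mbd2-/- replicate 4, and pathway genes numbered 5 to 14 higher and 9 to 19 lower.

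Of the receptor genes reported, 5 changed sign, each without a call. The log2 fold change of Adra1a was 0.035 in edgeR, 0.016 in DESeq2, 0.022 in limma-voom and 0.0067 with the length trend removed, and that of Chrna1 was 0.021, 0.010, 0.028 and 0.030. It was 0.0091 for Chrna5 in limma-voom, and -0.044 for Htr6 with the length trend removed. With single libraries left out, the log2 fold change ran from -0.19 to 0.10 in Adra1a, -0.077 to 0.056 in Chrna1, -0.12 to 0.075 in Chrna5, -0.10 to 0.018 in Htr2a and -0.056 to 0.088 in Htr6. The 95% intervals were wide in genes with few counts, such as Chrna2 (-1.25 to 0.06) and Hrh1 (-0.36 to 0.70).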
